A study of Mus musculus with 4 samples.

Results

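Developmental homeobox genes encode transcription factors that bind DNA through the homeodomain, a helical fold that recognises short AT-rich motifs around the letters TAAT. Members of the Hox clusters, of the Pax, Msx, Lhx, Dlx, Nkx, Pou, Cdx and Pitx families and of the sine oculis family, such as Six2, pattern the embryo, and most are silent or restricted in adult organs. In the testis the group is known for a few germ line and gonad genes, such as Hoxa4 in male germ cells, Lhx9 in the early gonad and Pou5f1 in germ cell precursors. The genes were followed in the testes of hypogonadal (hpg) mice, which lack gonadotropin-releasing hormone and make little testosterone. Members were the probe sets, short groups of oligonucleotides that read a single transcript, whose single gene symbol in the platform annotation began with one of these family names. The Rhox genes were not included. The rule gave 102 probe sets of 84 genes, out of 12422 probe sets measured. No probe set was found for the Otx family, which the rule also names, so 10 of its 11 families are described. Another 3 probe sets matched the names but carried several symbols and were left out.

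Total RNA was hybridised to 4 one-colour oligonucleotide arrays, 1 per sample. The T+O group holds a single array, from hpg testes after testosterone propionate, an injectable testosterone ester, for 2 weeks and its withdrawal. The T+T group holds 3 arrays: replicate 1 is described as pretreated with the same ester, withdrawn and given the ester again for 4 hours, with no duration stated for the first treatment. The descriptions of T+T replicates 2 and 3 state 2 weeks of pretreatment and withdrawal and stop there, so that their place in T+T rests on the title. All 4 samples thus share the hpg background, the pretreatment and the withdrawal. The comparison implied by the titles asks what renewed testosterone does to the deprived testis. The labels give no age, strain or number of animals and do not tell separate from pooled animals, so a p-value here speaks of the spread among these arrays and of nothing wider.

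The name pattern also caught transcripts that encode no homeodomain. Of the 102 probe sets, 7 belong to the opposite-strand RNAs Dlx1as, Dlx6os2 and Hoxa11os and to Pou2af1, a B cell coactivator of POU proteins. They were kept as members. Leaving these 7 out kept the counts at least 1.5-fold higher and lower at 4 and 0, but took the members with all T+T arrays above T+O from 34 to 33 and those with all below from 21 to 19. Among the Pax members, Pax1 and Pax9 encode paired-domain proteins without a homeodomain, and Pax2, Pax5 and Pax8 carry a partial one. Values are scaled signals: each array was multiplied so that its trimmed mean equalled the mean over the 4 arrays. Signals of different probe sets depend on their oligonucleotides and do not order genes by transcript number.

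Most of these genes gave weak signals. The lower quartile of all probe sets on an array, a level of 9.79 on the T+O array and 9.55, 9.02 and 10.7 on T+T replicates 1, 2 and 3, served as the reference. On all 4 arrays 47 of 102 member probe sets lay above it (46.1%), where 64.9% of all probe sets did. On single arrays 56 members lay above it in T+O (54.9%, against 74.9% of all probe sets), and 58, 60 and 62 on T+T replicates 1, 2 and 3 (56.9%, 58.8% and 60.8%, against 74.8%, 74.8% and 75%). A further 29 members were at or below the quartile on every array, where 15.2% of all probe sets were, and the other 26 crossed it. Only 14 members lay above the median of every array, where 43.1% of all probe sets did. Without the opposite-strand RNAs and Pou2af1, 45 of 95 were above the lower quartile on all 4 arrays. The same held for 24 of 51 probe sets of homeobox genes from other families, such as En2, Cux1 and Vax1 (47.1%). No detection calls were used, so a signal under the quartile is a weak signal and not a proof of absence.

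By family, the Hox clusters gave 22 of 40 probe sets above the lower quartile on all 4 arrays, the Pax genes 5 of 9, and the POU genes, octamer-binding factors with a second DNA-binding domain, 5 of 13. The LIM-homeodomain (Lhx) genes gave 3 of 7, among them Lhx3, of the pituitary, and Lhx6, of forebrain interneurons. Of the Nkx genes 3 of 8 were above it, of the sine oculis-related genes 3 of 8, and of the Dlx genes 2 of 9. Both Pitx probe sets (Pitx1 and Pitx3) and 2 of 3 Msx probe sets were above it, and none of the 3 Cdx probe sets was. Family sums of scaled signal put the Pax genes at 165 in T+O and 327, 212 and 222 in T+T. The Msx genes summed to 47.4 in T+O and 73.4, 83.9 and 109 in T+T. All T+T sums were higher in both families, but they include the Pax4, Pax5 and Msx3 probe sets described below. Only 4 of 9 Pax and 1 of 3 Msx probe sets had a positive mean log2 difference. The Lhx sum, 132 against 142 to 146, and the Nkx sum, 295 against 341 to 353, were also higher on every T+T array. The Hox sum was 1560.3 in T+O and 1852, 1739 and 1665 in T+T, the POU sum 388 against 414, 415 and 393, and the sine oculis-related sum 234 against 246, 268 and 210. The Cdx sum was 20.0 in T+O and 10.1 to 30.5 in T+T, and the Dlx sum 115 against 92.6 to 136. The Pitx sum was 59.2 against 31.3 to 128, so T+O lay inside the T+T sums of Cdx, Dlx and Pitx. No test was made on these sums.

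**Figure D1:**
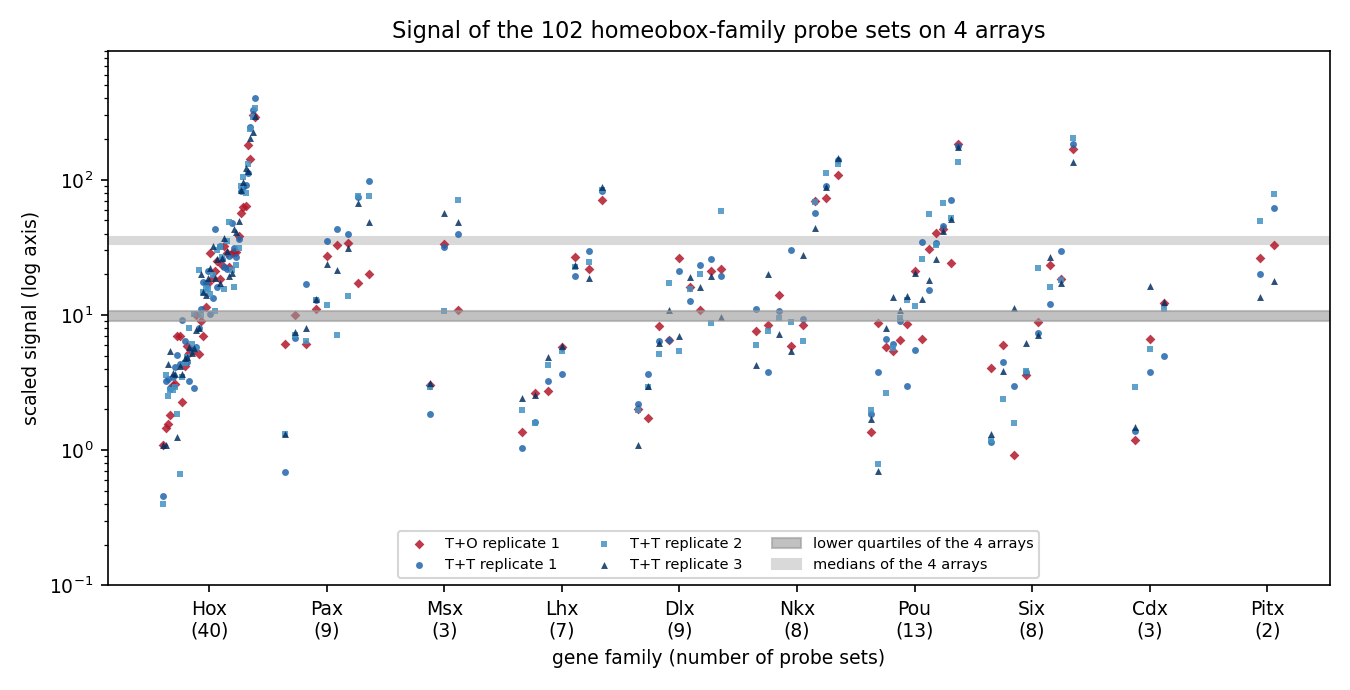
Scaled signal (log axis) of each of the 102 probe sets on the T+O array (diamonds) and on the 3 T+T arrays (circle, square, triangle), grouped by gene family and ordered within a family by mean signal. The dark band spans the lower quartiles of the 4 arrays and the light band their medians; 47 probe sets lie above the lower quartile on all 4 arrays and 14 above the median.

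The 14 members above every array's median came from 12 genes, singled out after their values were seen. Hoxa4, the Hox gene known from male germ cells, held 2 of them. Its probe set 97747_r_at read 293 in T+O and 405, 342 and 298 in T+T replicates 1, 2 and 3, so that all 3 T+T arrays lay above T+O but replicate 3 by little (log2 difference 0.23, SE 0.21; limma, adjusted p = 0.86). Its probe set 97745_at read 299 in T+O and 329, 293 and 224 in T+T, with T+O inside the T+T values. Hoxd8, which acts in the posterior trunk, held another 2, described below. Six2, which keeps nephron progenitors undifferentiated, read 169 in T+O and 184, 202 and 136 in T+T, again overlapping. Nkx2-6, a factor of the pharyngeal pouches, read 108 against 141, 132 and 144, with all T+T arrays above T+O (log2 difference 0.33, SE 0.20; limma, adjusted p = 0.75). Nkx6-2, first described from glia and testis, read 73.2 against 90.6, 112 and 88.1. Lhx1, a LIM-homeodomain protein of the kidney and the female duct, read 70.6 against 83.3, 84.4 and 88.2. On all 3 T+T arrays both lay above T+O, but by less than 1.5-fold on the log2 scale with offset used below. The log2 differences were 0.24 to 0.55 for Nkx6-2 and 0.21 to 0.29 for Lhx1. Hoxa6, Hoxb6, Hoxb8, Nkx1-2, Pou2f3 and a probe set of Pou6f1 completed the 14.

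Hoxa4 and Nkx6-2, described above, and Pax5, described below, are known from testis or germ cells and had brighter probe sets. Several other genes known from the gonad or germ line gave weak signals. Both Lhx9 probe sets, for the LIM-homeodomain gene needed to form a gonad, stayed between 1.03 and 2.65 on all arrays. Lhx8, an oocyte factor, read 2.74 in T+O and 4.12 ± 0.85 (SD, n = 3) in T+T. Pou5f1, the pluripotency factor OCT4, read 21.0 in T+O and 5.52, 11.7 and 20.4 in T+T on 103075_at, and 5.40 against 6.10, 5.71 and 13.6 on 161159_r_at, so the probe sets lean opposite ways. Six5, needed for spermatogenic cell survival, read 8.87 against 7.36, 22.3 and 7.09. Hoxa10 and Hoxa11, which act in the reproductive tract and testicular descent, read 7.04 against 3.08 ± 2.09 and 1.83 against 3.71 ± 1.52. Of the duct and kidney factors, Pax2 read 33.8 against 39.5, 13.8 and 31.4, and Pax8 10.1 against 7.14 ± 0.35. The intestinal factor Cdx2 read 12.3 against 4.95, 11.1 and 12.5. From Lhx9 to Cdx2, none of the genes listed was 1.5-fold to the same side of T+O on all 3 T+T arrays, on the log2 scale with offset used below.

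Along the Hox clusters, where gene number follows position from the 3′ to the 5′ end, 19 of 31 measured genes had a probe set above the lower quartile on all 4 arrays. In Hoxb these were 7 of 9 genes, all but Hoxb4 and Hoxb9. In Hoxc they were 4 of 5, with Hoxc6 above it on 1 array. In Hoxa they were Hoxa2, Hoxa3, Hoxa4, Hoxa6 and Hoxa9, while Hoxa7, Hoxa10, Hoxa11 and Hoxa13 were at or below it everywhere. In Hoxd they were the adjacent numbers Hoxd8, Hoxd9 and Hoxd10, while Hoxd1, Hoxd12 and Hoxd13 were at or below it everywhere. By number, 6 of 8 genes in groups 1 to 4 were above it on all arrays, 8 of 11 in groups 5 to 8, and 5 of 12 in groups 9 to 13. These counts take the best probe set of each gene, which favours genes with several, and leave out Hoxa11os. By probe set, with Hoxa11os, 22 of 40 were above the quartile on all 4 arrays (55%, where 64.9% of all probe sets were). No count by gene was made over all genes, and these counts were not tested.

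**Figure D2:**
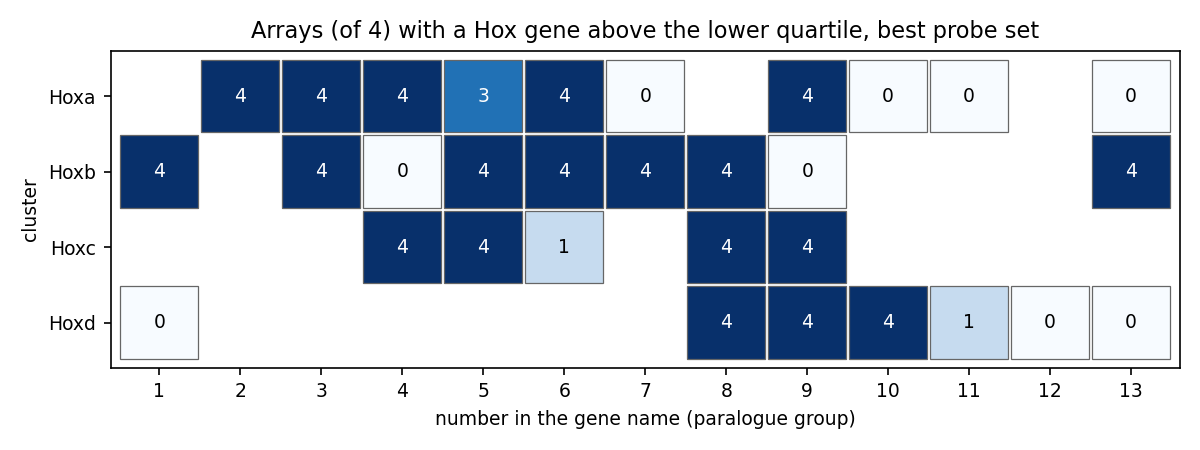
Number of arrays, out of 4, on which the best probe set of each measured Hox gene lay above the array's lower quartile, by cluster (rows) and by the number in the gene name (columns); empty places have no member. Of the 31 genes, 19 reach 4 and 9 stay at 0, and 6 of those 9 carry numbers from 9 to 13.

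Renewed testosterone, as the titles give it, moved no member past the test. With limma over the 7453 probe sets whose mean signal passed the filter of 22.7, 0 of the 40 members that passed it had an adjusted p under 0.05, in either direction; over all those probe sets 0.0268% were called higher and 0% lower. At an unadjusted p under 0.05, 6 members were higher and 1 was lower, where 7.8% of all those probe sets were called. The filter uses the mean of 4 arrays, 3 of them T+T, so a member high in T+T passes it more easily. Without the filter, 10 of 102 members had an unadjusted p under 0.05 in limma (6 higher, 4 lower), where 7.26% of all probe sets did.

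By size, 4 members exceeded their T+O signal by at least 1.5-fold on each of the 3 T+T arrays (3.92%, where 1.76% of all 12422 probe sets were), and 0 were at least 1.5-fold lower (where 2.52% of all probe sets were). These counts take every member, with no filter. The 4 are Pax4, Msx3, Pax5 and Pou6f1, and none passed limma's adjusted threshold. Fold changes are on the log2(signal + 9.78) scale, the offset being the lower quartile of all scaled values, and they understate the change of weak probe sets. The median log2 difference over the 102 members was 0.05, and over all probe sets 0.03.

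Pax4, the paired-box homeobox gene known for specifying beta cells of the pancreatic islet, read 17.4 in T+O and 74.2, 76.2 and 67.0 in T+T replicates 1, 2 and 3. The T+T arrays lay close together and far above T+O. The change came to 1.60 on the log2 scale (SE 0.26; limma, adjusted p = 0.15), the lowest adjusted p of the 40 members that passed the filter. The T+O signals of Pax4, Msx3 and Pax5 were themselves under the filter level of 22.7, so these probe sets passed it only through their T+T values. Without the filter, limma's adjusted p was 0.50 for Pax4, 0.54 for Msx3, 0.55 for Pax5 and 0.57 for Pou6f1. As deposited, before scaling, the signals were 19.0 in T+O and 64.5, 57.4 and 86.0 in T+T.

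Msx3, an Msx gene of the dorsal neural tube, read 10.8 in T+O, just above that array's lower quartile, and 39.8, 70.3 and 49.1 in T+T. No T+T array came near the T+O value. The change came to 1.58 on the log2 scale (SE 0.36; limma, adjusted p = 0.26). The other Msx genes did not share this: Msx1, of face and tooth development, read 33.6 against 31.7, 10.6 and 56.6, and Msx2 3.02 against 2.62 ± 0.69.

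Pax5, the commitment factor of B cells that is also described from the adult testis, read 20.1 in T+O and 97.9, 75.2 and 48.3 in T+T on probe set 96993_at. The T+T arrays were spread over a range of their own but all lay above T+O (log2 difference 1.44, SE 0.36; limma, adjusted p = 0.31). A second Pax5 probe set, 102578_at, was weak, with 6.13 in T+O and 17.0, 6.37 and 8.03 in T+T. It leaned the same way, by 0.31 on the log2 scale, but only T+T replicate 1 stood clear.

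Pou6f1, a brain-expressed POU factor, read 24.4 in T+O and 70.3, 52.3 and 51.2 in T+T on probe set 99891_at (log2 difference 0.97, SE 0.29; limma, adjusted p = 0.44). Its other probe sets went the opposite way. Probe set 161390_r_at read 40.6 against 33.8, 32.9 and 26.1, and 160793_at read 184 against 179, 135 and 174, with every T+T value below T+O. The log2 differences were -0.31 and -0.18, so the direction for Pou6f1 is uncertain.

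**Figure D3:**
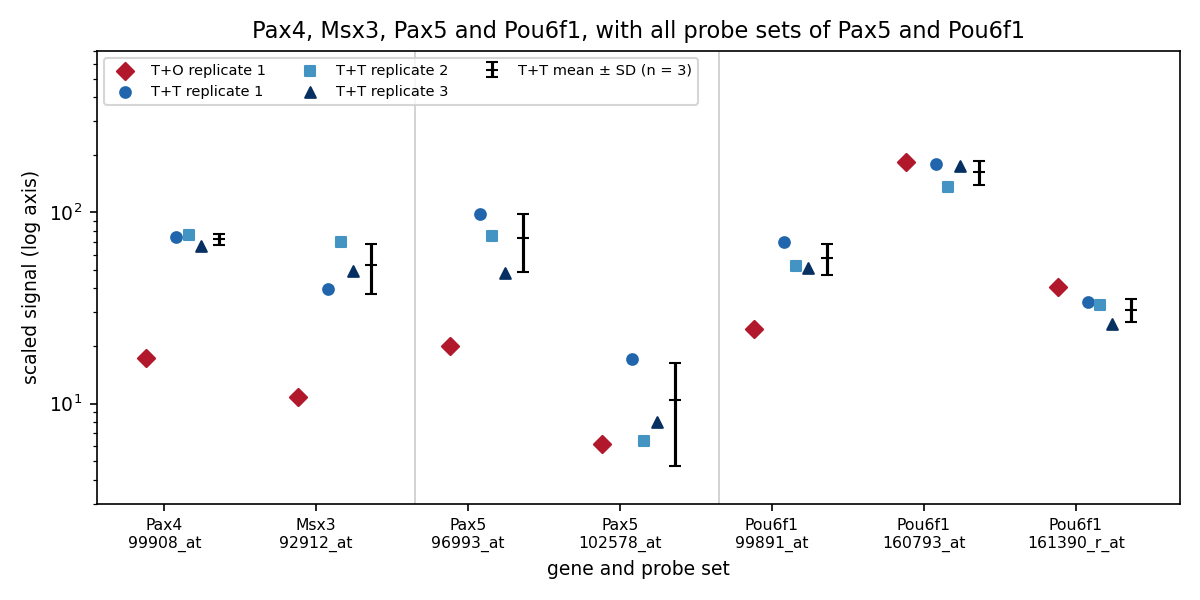
Scaled signal (log axis) of Pax4, Msx3, Pax5 and Pou6f1 on the T+O array (red diamond) and the 3 T+T arrays, with the T+T mean ± SD (n = 3), for every probe set of these genes. Pax4 has 17.4 in T+O and 67.0 to 76.2 in T+T, while 2 of the 3 Pou6f1 probe sets lie lower in T+T than in T+O.

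The sequence upstream of the start is shown for 3 of these 4 genes, as Pax4 had no promoter entry. A probe set of each gene was at least 1.5-fold higher on all 3 T+T arrays. For Pou6f1 the other probe sets ran the other way. Whether a steroid receptor acts through these regions was not tested. The sequence is the 250 bases before the RefSeq start in build GRCm38.p6, written 5′ to 3′ along the gene. Promoter entries matched 60 of the 84 member genes. Capitals mark the motifs searched on both strands: AGAACA, a single arm of the palindrome bound by the androgen receptor; TAAT, the homeodomain core; ATGCAAA, the first letters of the POU octamer; and TATAAA. None of the marked motifs overlap.
Msx3, chr7:140049089-140049338, minus strand: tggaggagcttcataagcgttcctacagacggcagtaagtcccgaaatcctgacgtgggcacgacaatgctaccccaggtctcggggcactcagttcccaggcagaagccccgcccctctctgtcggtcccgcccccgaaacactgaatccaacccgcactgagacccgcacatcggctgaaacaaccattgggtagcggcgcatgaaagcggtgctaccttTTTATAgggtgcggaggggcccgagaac
Pax5, chr4:44710695-44710944, minus strand: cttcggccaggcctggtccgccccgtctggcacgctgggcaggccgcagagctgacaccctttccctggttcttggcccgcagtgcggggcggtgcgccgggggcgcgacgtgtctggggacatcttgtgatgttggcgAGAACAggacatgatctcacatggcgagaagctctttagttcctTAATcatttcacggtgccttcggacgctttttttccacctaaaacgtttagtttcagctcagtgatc
Pou6f1, chr15:100599985-100600234, minus strand: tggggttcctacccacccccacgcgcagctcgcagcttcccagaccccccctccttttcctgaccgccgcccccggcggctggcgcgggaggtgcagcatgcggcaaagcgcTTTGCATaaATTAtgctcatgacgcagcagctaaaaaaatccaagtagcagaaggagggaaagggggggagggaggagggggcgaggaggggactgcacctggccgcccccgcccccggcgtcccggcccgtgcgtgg
AGAACA occurred in the Pax5 window, 111 bases before the start, and not in the other windows shown. It was found in 16.1% of all 32851 promoter entries and in 5 of the 70 entries of member genes (7.14%). TAAT occurred in the Pax5 and Pou6f1 windows, and in 54.9% of all entries against 60% of the members' entries. ATGCAAA occurred in the Pou6f1 window, 138 bases before the start, and in 4.12% of all entries. TATAAA occurred in the Msx3 window, 28 bases before the start and read on the other strand, and in 12.4% of all entries. Members' windows were richer in G and C, with a median of 60.6% against 52.4%. A match is a run of letters and shows no binding.

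Across the 102 members the direction was otherwise mixed. All 3 T+T arrays lay above T+O, by any amount, for 34 members (33.3%, where 29.7% of all probe sets did so), and all lay below for 21 (20.6%, where 23.2% did so). Both shares were close to those of all probe sets. The largest negative mean difference was that of Dlx6, a gene of the limb and forebrain. It read 26.5 in T+O and 21.3, 5.44 and 6.93 in T+T (-0.87 on the log2 scale). Hoxc5 read 28.9 against 10.2, 14.2 and 22.2 (-0.64), and Pax9, of the thymus and teeth, read 6.13 against 1.11 ± 0.37, all below the lower quartile. Pou3f3, a neural POU factor, had a positive mean difference of 1.02, from 6.59 in T+O to 34.7, 26.1 and 13.2 in T+T, and fell short of the fold on replicate 3. Dlx6, Hoxc5, Pax9 and Pou3f3 were named after their values were seen. None of the 4 passed the filter, so only the limma run without the filter covered them.

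**Figure D4:**
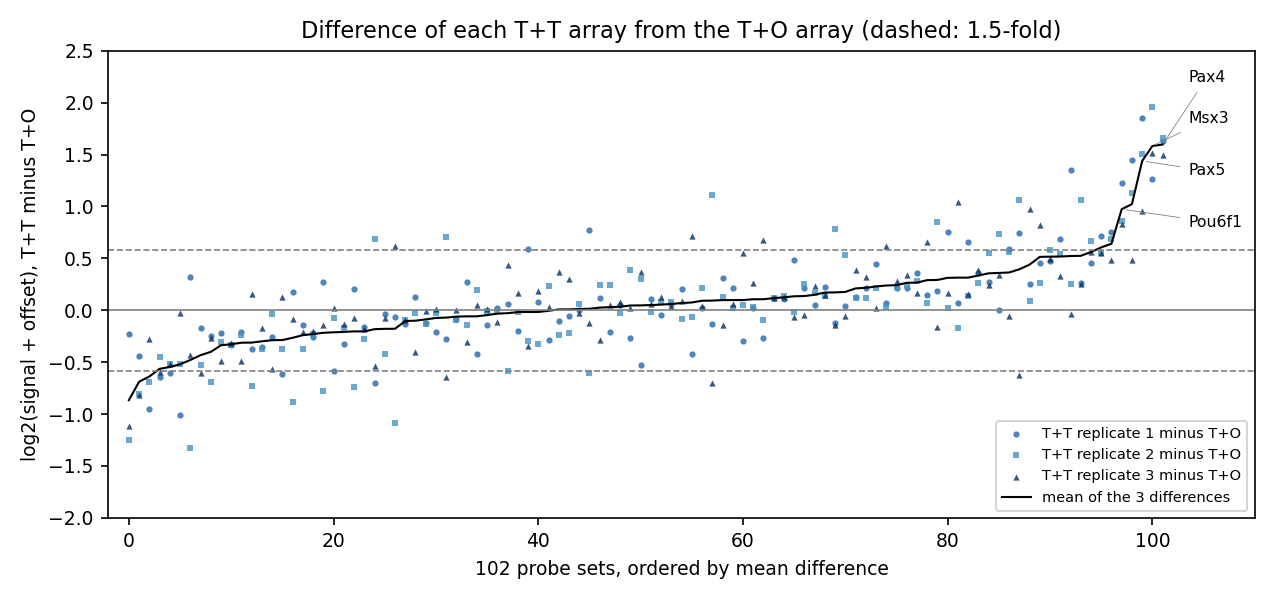
Difference of each T+T array from the T+O array on the log2(signal + offset) scale for the 102 probe sets, ordered by the mean of the 3 differences (black line); dashed lines mark 1.5-fold. On the right Pax4, Msx3, Pax5 and Pou6f1 are above the upper line on all 3 arrays, and no probe set on the left is below the lower line on all 3.

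Probe sets of a single gene did not always agree. More than 1 member probe set was present for 14 genes, and for 10 of them the log2 differences had both signs. The share was not counted over all genes with several probe sets. Some of the 10 had differences near 0, as Hoxa11os did (-0.03 and 0.03), or weak probe sets only, as Lhx9 and Hoxd1 did. Hoxd8 was the clearest case of opposite signs. Its probe set 93221_at read 143 in T+O and 247, 236 and 203 in T+T (log2 difference 0.64, SE 0.20; limma, adjusted p = 0.45). Its probe set 160460_at read 182 in T+O and 113, 131 and 117 in T+T (log2 difference -0.56, SE 0.21; limma, adjusted p = 0.55). In neither case did the groups overlap, and they ran opposite ways. For Hoxa6, a trunk patterning gene, 102580_r_at read 62.5 against 89.0, 105 and 97.0, while the weaker 102579_f_at read 10.1 against 6.37 ± 1.23. Hoxb8 leaned upward on both of its probe sets, with 64.3 against 91.7, 79.3 and 121 on 96418_r_at. Hoxa4 spanned the whole scale: beside the 2 bright probe sets above, 162402_r_at read 9.05 against 13.6 ± 5.48 and 97746_f_at 1.10 against 0.65 ± 0.38. The 3 probe sets of Six4, a muscle and placode factor, read 23.6, 18.6 and 0.915 in T+O. Hoxd1, Lhx9, Pou5f1, Pou2af1 and Hoxa11os also had differences of both signs, and Dlx6os2 and Six3 leaned downward on both probe sets. Of the members, 15 have names marked f, r, s or g, which the array maker gives to probe sets that may read related sequences or that broke a selection rule.

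**Figure D5:**
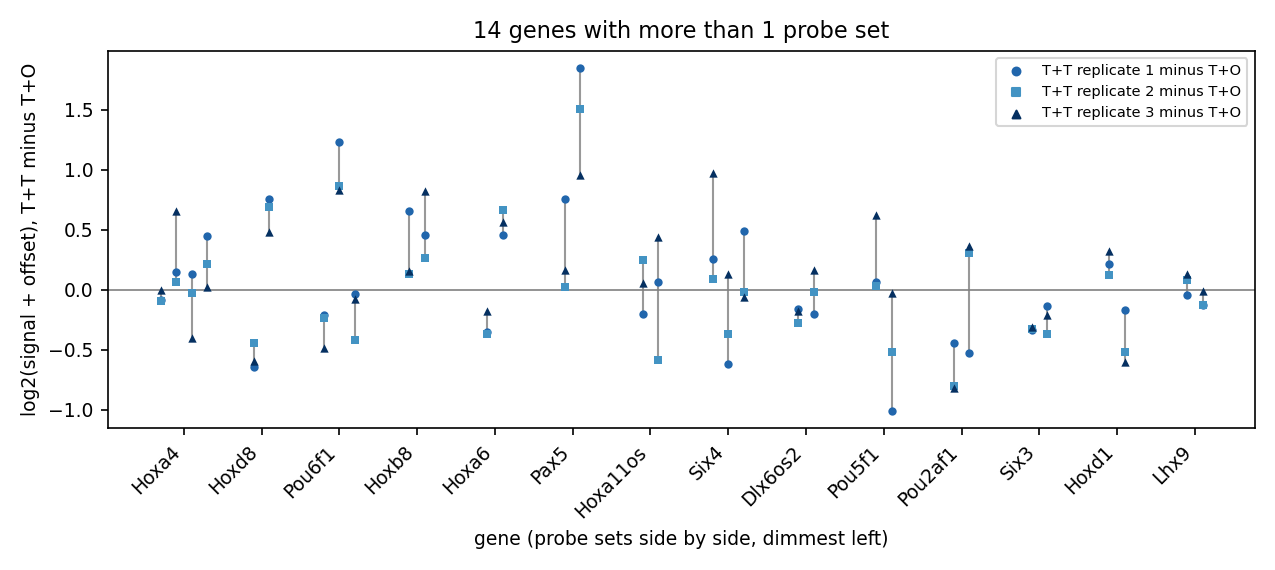
Log2(signal + offset) difference of each T+T array from T+O for the 14 genes with more than 1 probe set; probe sets of a gene stand side by side, the dimmest on the left, and a grey line joins the 3 arrays. The Hoxd8 probe sets lie wholly on opposite sides of 0, and 1 of 3 Pou6f1 probe sets lies above 0.

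Some members varied more among the T+T arrays than from T+O. Dlx4, a placental and branchial arch gene, read 19.3, 59.0 and 9.74 on T+T replicates 1, 2 and 3 with 22.0 in T+O. Pitx1, a factor of the pituitary and hindlimb, read 61.3, 78.5 and 17.8 with 32.7 in T+O. Pax3, of neural crest and muscle, read 43.5, 7.16 and 21.7 with 32.7 in T+O, and Pou2f2, a B cell POU factor, read 15.2, 55.7 and 18.2 with 30.8. For each of these, and for Msx1, T+O lay inside the T+T values.

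The only pair of arrays whose titles and descriptions match is T+O replicate 1 and T+T replicate 1, which has no replicate check. Between them 15 members were at least 1.5-fold higher in T+T replicate 1 (14.7%, where 8.04% of all probe sets were) and 6 at least 1.5-fold lower (5.88%, where 11.1% were). The widest were Pax5 at 1.85 on the log2 scale, Pax4 at 1.63, Pou3f3 at 1.44, Nkx3-2 at 1.35, Msx3 at 1.27 and Pou6f1 at 1.23. Pou5f1 (103075_at) at -1.01 and Hoxc5 at -0.95 were on the other side. Dlx5, which acts with Dlx6 in the jaw and limb, differed by 0.68, from 10.8 to 23.2. If the descriptions of replicates 2 and 3 are followed instead of the titles, T+T replicate 1 stands against 3 withdrawn arrays. Then 4 members were 1.5-fold higher than on all 3 others (3.92%, where 1.25% of all probe sets were) and 0 lower (where 2.17% were). These were Hoxb3, Hoxd10, Nkx3-2 and Pax5. Under that reading the log2 difference was 1.03 for Pax5, 0.57 for Pax4, 0.66 for Pou6f1 and 0.11 for Msx3, and none passed limma (lowest adjusted p of a member 0.92).

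Partners and regulators of these proteins gave at most 1 call in each direction per list, on lists of 10 to 25 probe sets. None passed limma's adjusted threshold. Among all probe sets 1.76% were called higher and 2.52% lower, and 64.9% were above the lower quartile on all arrays. Of 10 probe sets for the PBX, MEIS, PKNOX and TGIF cofactors of Hox proteins, 7 were above the lower quartile on all arrays. Pknox1, a cofactor of the TALE class, read 72.0 in T+O and 117, 119 and 128 in T+T, at least 1.5-fold higher. Pbx3 was at least 1.5-fold lower on 93615_at, with 91.2 against 38.6, 42.2 and 30.9, but its other 2 probe sets leaned upward. Among 15 probe sets for partners of sine oculis, LIM-homeodomain and POU proteins, only Lmo2, a LIM-only protein, was called, with 15.3 against 28.2, 46.4 and 55.7 on 93666_at. Of 25 probe sets for Polycomb and Trithorax regulators, which keep Hox genes off or on, 20 were above the quartile and only Bmi1 was called, lower, with 120 against 44.5, 57.5 and 54.1. The shares called were 10% higher and 10% lower of the cofactors, 6.67% higher of the partners and 4% lower of these regulators. Of 51 probe sets of other homeobox genes, 1 was called, lower: 162321_f_at of Barx1, with 23.9 in T+O and 8.51, 8.62 and 8.34 in T+T. The other Barx1 probe set, 92514_at, leaned the other way, by 0.17 on the log2 scale. The only Rhox genes measured were Rhox5, at 106 in T+O and 114, 124 and 153 in T+T, and Rhox6, below the quartile.

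The testis label was borne out by its brightest markers, though not by every probe set: the spermatid genes Tnp2 and Prm1 read at least 7912 on every array. Prm2, another spermatid gene, read 25.5 in T+O and 35.4, 29.3 and 58.1 in T+T on 160528_at, and stayed below the lower quartile on 161229_at. Of 8 Sertoli probe sets, 7 were above the lower quartile on all arrays (87.5%, where 64.9% of all probe sets were). In whole tissue, fewer cells of a type and less RNA per cell cannot be told apart. Of 7 islet hormone probe sets, 1 (Ppy, 162464_f_at) was above the quartile on all arrays, and their summed signal was 128 in T+O and 128 to 138 in T+T. The 9 skeletal muscle probe sets summed to 121 in T+O and 187 to 213 in T+T, with 3 above the quartile on all arrays. The 7 pituitary hormone probe sets summed to 532 in T+O and 506 to 555 in T+T, and Prl was called higher, with 10.1 against 30.6, 30.6 and 56.1. Of these 7, 6 were above the quartile on all arrays (85.7%), a share close to that of the Sertoli probe sets. This level thus did not set the testis markers apart from the pituitary ones. The 7 nervous tissue probe sets summed to 118 in T+O and 88.9 to 138 in T+T, and the 4 epididymis probe sets to 90.4 and 48.9 to 88.1. The 5 germ cell probe sets summed to 947 in T+O and 444 to 818 in T+T. The summed signal of the 7 spermatid probe sets went the other way, at 18804 in T+O and 19701 to 24940 in T+T. Tnp2 and Prm1 made up most of that sum. By probe set, all 3 T+T arrays lay above T+O for 5 of the 7. They lay below it for 1, of the spermatid gene Acrv1, with 266 against 160, 232 and 228. The Sertoli sum was 2908.5 against 2915 to 3310, and the Leydig sum 393 against 329 to 438. Dazl was called lower on 94750_at, with 166 against 63.5, 79.2 and 103. The other Dazl probe set, 160357_at, read 66.0 against 54.9, 75.0 and 71.0, with T+O inside the T+T values. Of 7 spermatid probe sets 5, and of 8 Leydig cell probe sets 6, were above the quartile on all arrays, and a weak Tnp1 probe set was called higher, with 8.41 against 27.4, 19.2 and 27.6. The Prl, Dazl and Tnp1 calls were 14.3%, 20% and 14.3% of their lists, where 1.76% of all probe sets were called higher and 2.52% lower. On the same arrays Gapdh, a control gene, had a 3′ to 5′ signal ratio of 1.20 for T+O and 0.844 ± 0.039 (SD, n = 3) for T+T, and that of pyruvate carboxylase 3.76 and 1.90 ± 0.12. The ratio of Actb was 1.53 for T+O and 1.66, 1.40 and 1.17 for T+T, so that T+O lay inside the T+T values. The part of the muscle and germ cell signals and of these ratios in the results was not tested.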

How the data were processed

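The authors deposited 1 signal intensity per probe set and array, on a linear scale; the software that made it is not stated in the labels. The deposited array medians ran from 25.4 to 48.3. The 66 control probe sets were removed and each array was scaled to a common mean after trimming 2% at each end (factors 0.779 to 1.33). T+T was compared with T+O on log2(signal + 9.78) over 7453 probe sets with a mean above the 40th percentile, with limma 3.58.1 in R 4.3.3 (intensity trend, two-sided, Benjamini-Hochberg, threshold 0.05, 2 residual degrees of freedom). With 1 array in T+O, its spread is taken to equal that of T+T. The fit was tested on simulated data. The number of arrays limits the precision.

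Groups came from the titles; the number of T+T replicate 3 was given in accession order. Gene symbols came from the platform annotation, and all 102 members were found by gene ID in a RefSeq table of GRCm38.p6. The file names no build.

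Members and lists were chosen with earlier results of these data known. The text names members past the test, those 1.5-fold apart on all 3 T+T arrays, the brightest of each family, genes with several probe sets, the 5 that vary most among T+T arrays and 23 fixed genes, of which 16 were measured. Alternatives covered scaling, offset, filter, each T+T array left out, the arm of 2 arrays, probe sets per gene and the level.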

Additional observations from a re-analysis of the deposited data

How the results depend on the processing

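The count of members past limma's adjusted threshold was 0 under each alternative run, from other scalings, offsets and filters to each T+T array left out. The 4 members at least 1.5-fold higher were 3 with the offset at the 50th percentile (without Pou6f1) and 6 with an offset of 1, and 4 to 7 when a T+T array was left out; the 7 arose without T+T replicate 3, where Hoxd8, Pitx1 and Pou3f3 joined. The 0 lower members became 3 with an offset of 1 (Pax9, Pou2af1 and Six3), where 4.81% of all probe sets were called lower. Leaving out a T+T array gave 2 without replicate 1, 1 without replicate 2 and 1 without replicate 3. In these runs 3.49%, 3.22% and 5.75% of all probe sets were called lower. Pax4, Msx3 and Pax5 were called higher under each scaling and offset; with no scaling Pou3f3 took the place of Pou6f1. The adjusted p of Pax4 in limma ran from 0.054 without T+T replicate 1 to 0.99994 with no scaling. The median difference of the members, 0.048, became 0.033 with quantile scaling, -0.038 with no scaling, 0.024 with the offset at the 50th percentile, 0.032 with an offset of 1, 0.025 when T+T replicates 2 and 3 count as withdrawn arrays, and 0.0198 over the members kept by the filter, and 0.047 to 0.075 with a T+T array left out. The 47 members above the lower quartile became 14 above the median. For the single pair, 15 higher and 6 lower became 7 and 0 at a 50th-percentile offset, and 9 and 2 among members kept by the filter (fewer members). Shares over all probe sets were not counted for these changed pair settings. The cause of the other changes was not tested.

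Leaving out the opposite-strand RNAs with Pou2af1, and keeping only unmarked probe set names, were chosen after the data were examined. T+O could not be left out, since it is the only array of its group. No paired analysis was possible because only 1 array carries the T+O title.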
